A study of Drosophila melanogaster with 8 samples.

Results

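Ilp8, Mmp1, Mmp2 and Timp are 4 genes of the injured and remodelled wing disc, chosen by symbol from a fixed list, out of 9826 genes that the deposited gene tables place beside a Dam-RNase H1 peak in either genotype. Ilp8 encodes a relaxin-like hormone that damaged or overgrowing discs secrete; it acts through the receptor Lgr3 in the brain to hold back ecdysone synthesis and so the onset of metamorphosis. Mmp1 and Mmp2 encode the matrix metalloproteinases of the fly, which cut basement membrane and other extracellular matrix during disc eversion, wound repair and tumour invasion, and Timp encodes the secreted inhibitor of both. Mmp1 and Ilp8 are widely used as readouts of stress signalling through the kinase JNK in discs.

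The binding was mapped by Targeted DamID in wing imaginal discs of third-instar Drosophila melanogaster larvae. A DNA adenine methylase (Dam) fused to RNase H1, an enzyme that recognises RNA:DNA hybrids, leaves methylated GATC sites where it touches chromatin. The groups were ecd1 Dam-RNase H1 (nub>Dam-RNase H1; ecd1, 3 libraries), control Dam-RNase H1 (nub>Dam-RNase H1, 3 libraries), ecd1 Dam-only (nub>Dam; ecd1, 1 library) and control Dam-only (nub>Dam, 1 library). The allele ecd1 is a temperature-sensitive mutation of ecdysoneless, a gene of ecdysone synthesis and pre-mRNA splicing. It affects the whole larva, while nub, the driver of the Dam constructs in all 4 groups, is active in the wing part of the disc. All larvae also carried the heat-sensitive repressor Gal80 under the tub promoter; they grew at 25 °C, were shifted on day 6 to 29 °C for 24 h, and were dissected on day 7. Each genotype was deposited as 1 peak list, so no height below has a replicate error, and no comparison between genotypes could be tested over samples. Library depth is unknown.

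The ecd1 list held 9559 peaks with a median height of 1.10, and the control list 8597 peaks with a median of 0.88; height is the authors' score on an unstated scale. The 2 lists were made separately, and ecd1 heights were the larger for most peaks. Among the 1801 peaks whose ends were identical in the ecd1 and control lists, 85% were taller in ecd1, and the median difference over all of them was 0.28. Values of single genes are therefore set beside this general shift. Discs were profiled in bulk, so stronger binding per cell and a larger share of bound cells cannot be told apart. The constructs are driven by nub, so cells without nub activity should carry no Dam label. Some marker genes of other cell types that disc preparations can hold had peaks. A peak at such a gene does not show that its cell type was present. The share of all annotated genes with a listed peak was not computed. The marker counts, and the counts of list genes with a listed peak given below, therefore have no general share beside them. Of 8 myoblast markers, 6 had a listed peak, with summed heights of 9.13 in ecd1 and 6.81 in control. The gene kirre alone gave 2.62 and 1.54 of these sums. Of 10 haemocyte, fat body and trachea markers, 6 had one in ecd1 and 3 in control, where Hml, NimC1 and btl had none. The 3 genes with both were srp, crq and trh. Their summed heights were 4.29 in ecd1 and 3.10 in control, with trh the lower in ecd1 (1.83 against 1.97). The largest difference among them was at crq, with 1.76 in ecd1 and 0.72 in control. That ecd1 peak lay outside crq, and the tallest ecd1 peak over the gene was 0.83. The haemocyte gene He and the defining fat body genes Fbp1, Lsp1alpha and Lsp2 had no peak in either genotype. The part of these other cell types in the results was not tested. Peaks show binding and not expression, so the labelled tissue could not be checked by its transcripts.

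All 4 genes had a peak in the ecd1 gene table and 3 of them in the control gene table, where Mmp2 was missing; 73.4% of all genes with a peak stood in both tables. By the authors' deposited table of regions higher in ecd1, all 4 genes had such a region, against 57.1% of all genes with a peak. Timp was among them by a single base. With an FDR under 0.001 only Ilp8 and Timp remained. When a region went to the gene nearest its midpoint, only Mmp1 and Mmp2 did, so no member met both limits. By the authors' deposited table of regions higher in control, only Mmp2 of the 4 had one, against 22.1% of all genes. Regions of height 1 or more on the ecd1 side belonged to 3 of the 4 (Ilp8, Mmp1 and Mmp2) in the authors' deposited table, against 12.4% of all genes. The genes were chosen with these results known, so the counts describe them and carry no test. The largest listed height was that of Ilp8 in both genotypes, while Timp and Mmp2 lay near the middle of the ecd1 list, at its 56.4th and 58.5th percentile.

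Ilp8 (FBgn0036690, BDGP6 3L:17029812-17032080, 2269 bp) had the tallest peak of the 4 genes in both genotypes. The next tallest over one of these genes was at Mmp1, with 1.95 in ecd1 and 1.34 in control. The peak at the right end of Ilp8 (3L:17031956-17036015, 4060 bp) had a height of 2.82 in ecd1 and 1.61 in control. Both heights had an FDR of 0.0001, and the ends were identical in both lists. A height of 2.82 stood at the 99.4th percentile of the ecd1 list, and one of 1.61 at the 94.3rd percentile of the control list. The peak was also broad, wider than or equal to 92.1% of ecd1 peaks and 89.8% of control peaks. Among the 1801 peaks with identical ends, the difference of 1.21 between the ecd1 and control heights lay at the 98.7th percentile, and 24 peaks had a larger one.

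Very little of this peak lay in Ilp8 itself. Only 125 bp (3.08% of the peak) overlapped the right end of the Ilp8 span, and they covered 5.51% of the gene. The peak covered the whole of the non-coding genes lncRNA:CR45756 (554 bp, 13.6% of the peak) and lncRNA:CR43250 (558 bp, 13.7%). It reached 348 bp into the protein-coding gene beg, and its remaining 2501 bp (61.6%) lay between annotated genes. The gene tables nevertheless list the peak for Ilp8, beg and CG7730 in both genotypes. CG7730 was 2142 bp away on the far side of Ilp8, and neither of the non-coding genes under the peak was listed for it. The annotation used has no strand, so whether this end of Ilp8 holds its promoter was not analysed here.

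Inside the peak the authors' deposited table gives 2 regions as higher in ecd1, which together covered 3224 bp (79.4%) of it. The left one (3L:17031956-17032784, height 1.35 in the authors' deposited table) held the 125 bp of Ilp8, all of lncRNA:CR45756 and 176 bp between genes. The right one (3L:17032984-17035378) was the taller, with 1.65 in the authors' deposited table, and did not touch Ilp8, from which it was 904 bp away. It held all of lncRNA:CR43250 and 1837 bp between genes. The assignments in the authors' deposited table differ from these overlaps. The left region is listed for CG7730, Ilp8 and both non-coding genes, although lncRNA:CR43250 was 335 bp outside it, and the right region is listed in the authors' deposited table only for beg, at 290 bp. Heights of 1.35 and 1.65 stood at the 95.7th and 99.1st percentile of the 4083 regions that the authors' deposited table calls for ecd1. The ecd1 call at the locus was thus larger over the second non-coding gene and its flanks than at the end of Ilp8. No region higher in control lay inside the 14 kb window around Ilp8.

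The ecd1 list held 2 smaller peaks in this window that had no counterpart in the control list. One lay across the left end of Ilp8 (3L:17029296-17030115, 820 bp, height 0.58, FDR 0.00032), with 304 bp in Ilp8 and 519 bp in CG7730, which overlap by a few bases. At the 10.3rd percentile it was a low peak, and it stands in no gene table, each of which gives 1 peak per gene. It therefore left Ilp8 with peaks over both ends in ecd1 discs, covering 18.9% of the gene, against 5.51% in control discs. The other (3L:17036952-17037342, height 0.54) lay inside scaf6, 4872 bp from Ilp8, and an interval with identical ends is called higher in ecd1 by 0.54 in the authors' deposited table. Fit2, a kindlin gene of integrin adhesion and the remaining gene of the window, had no peak, and its nearest ecd1 peak was 2179 bp away.

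**Figure D1:**
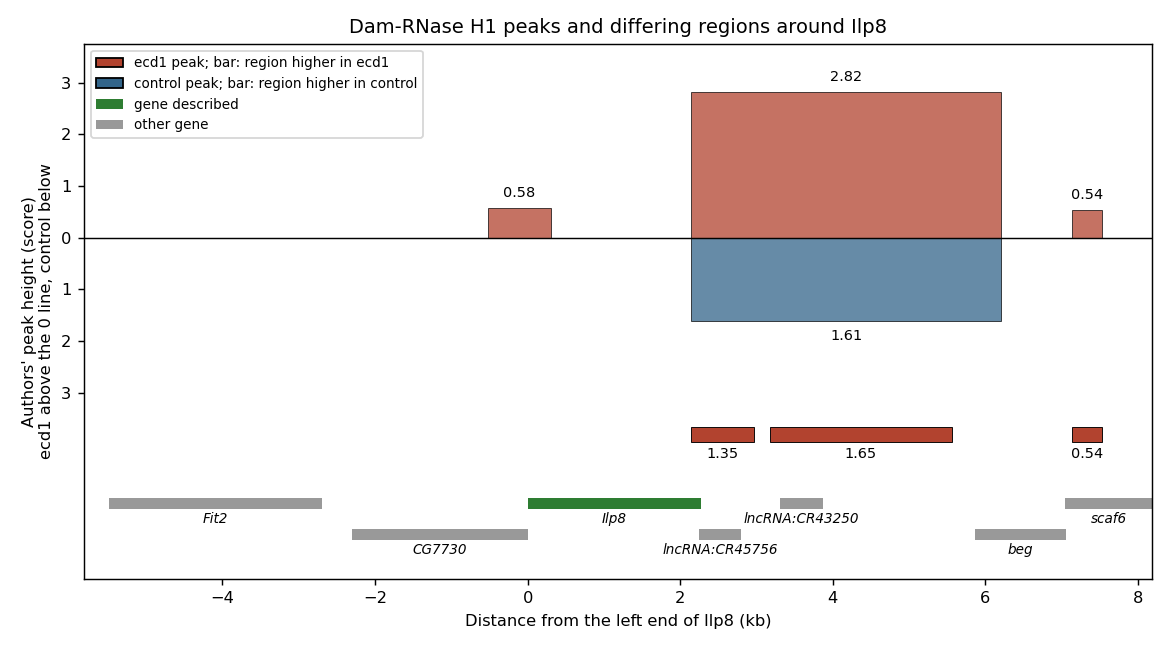
Peaks of ecd1 discs (above the 0 line) and control discs (below it) in the 14 kb window, by distance from the left end of Ilp8 in kb, with the authors' height on the vertical axis; bars under them are regions of the authors' deposited difference tables with their heights, and the lowest bars are annotated genes. The shared peak of 2.82 in ecd1 and 1.61 in control lies almost wholly to the right of Ilp8, and the low peak of 0.58 at the left end is present in ecd1 only.

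**Figure D2:**
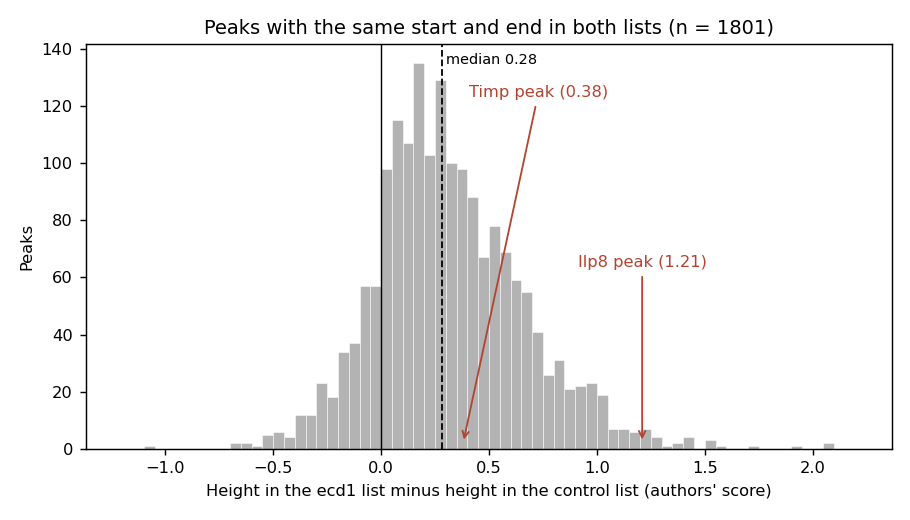
Number of peaks by the difference of their height in ecd1 minus control, for the 1801 peaks with identical ends in both lists; the dashed line is the median of 0.28. The Ilp8 peak (1.21) lies in the right tail, and the Timp peak (0.38) lies near the middle.

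Mmp1 (FBgn0035049, 2R:24671294-24688184, 16.9 kb) encodes a mainly secreted protease and was bound near both ends in both genotypes. At its right end the control list has 1 wide peak (2R:24683004-24689937, 6934 bp, height 1.34). The ecd1 list has 2 narrower and taller peaks within that interval, of 1.95 (2R:24683569-24687180) and 1.79 (2R:24687756-24689234), 576 bp apart. With the narrower peaks, fewer bases of Mmp1 lay under peaks in ecd1 (28.4%) than in control (35.7%). Between the taller heights the ecd1 peak was the higher by 0.61.

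Near the left end a peak of 1.00 in ecd1 (2R:24671914-24672677) stood against one of 0.83 in control, with the same start and a width of 843 bp. The gene tables give Mmp1 a height of 1.79 in ecd1 and 0.83 in control, which are peaks of opposite ends of the gene. The apparent difference of 0.96 between the tables thus compares different places, and no interval shared by both lists gave it. The wide control peak is listed for SiaT instead, a neighbouring gene, and the ecd1 peak of 1.95 for no gene. Within that ecd1 peak, and wholly inside Mmp1, a stretch of 438 bp is called higher in ecd1 by 1.09 in the authors' deposited table (2R:24685092-24685529, FDR 0.00111). A further region of 0.95 in the authors' deposited table (2R:24669276-24669641) lay 1653 bp outside Mmp1 and is listed for Pof and CG33228. No region higher in control was within 5000 bp.

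Mmp2 (FBgn0033438, 2R:9611139-9683858, 72.7 kb) encodes a membrane-anchored protease and stood apart from the other 3 genes in having no control peak over its whole length. Its single ecd1 peak (2R:9654479-9658290, 3812 bp, height 1.21, FDR 7e-05) lay deep inside the gene, 43.3 kb from the left end, and covered 5.24% of it. The gene table lists the peak for Mmp2 and for tRNA:iMet-CAT-2-1, a tRNA gene inside the Mmp2 span at 2935 bp from the peak. The nearest peak outside Mmp2 in either list was 2764 bp away at GstT2 and CG12926, with heights of 0.55 in ecd1 and 0.53 in control.

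The differing regions of Mmp2 went both ways. The authors' deposited table gives 1.39 as higher in ecd1 for the left part of the ecd1 peak (2R:9654479-9655557). A second region near the right end of the peak (2R:9657376-9658117), listed for the tRNA gene only, has 0.56 in the authors' deposited table. On the other side, the authors' deposited table has a region of 0.73 as higher in control (2R:9647924-9648818), also inside Mmp2 and 5661 bp to the left of the first ecd1 region. That region met no peak of either list, and the nearest control peak was 39549 bp away. A further region higher in control, of 0.43 in the authors' deposited table (2R:9685297-9685849), lay 1439 bp outside Mmp2 and is listed for Uba1. Regions in both directions were listed for 12.3% of all genes with a peak. A region height of 1.39 exceeded the 1.21 of the peak that contains it.

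Timp (FBgn0025879, 3R:10203875-10213007, 9133 bp) lies wholly inside the span of Syn, the synapsin gene, so its signal cannot be told apart from that of Syn. Its right end carried a peak with the same ends in both lists (3R:10212125-10213560), of height 1.18 in ecd1 and 0.80 in control. That difference of 0.38 stood at the 62nd percentile of peaks with identical ends, close to their median of 0.28. A second peak further inside (from 3R:10209440) had a height of 0.93 and a width of 2555 bp in ecd1, against 0.66 and 1708 bp in control. Peaks covered 37.6% of Timp in ecd1 and 28.4% in control. The one region called higher in ecd1 (3R:10213007-10213330) shared a single base with Timp, and its height is 0.50 in the authors' deposited table. Its other 323 bp lay beyond the gene, within Syn, and the authors' deposited table lists it for both. At the 13.4th percentile of regions higher in ecd1 it was the smallest call among the 4 genes.

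**Figure D3:**
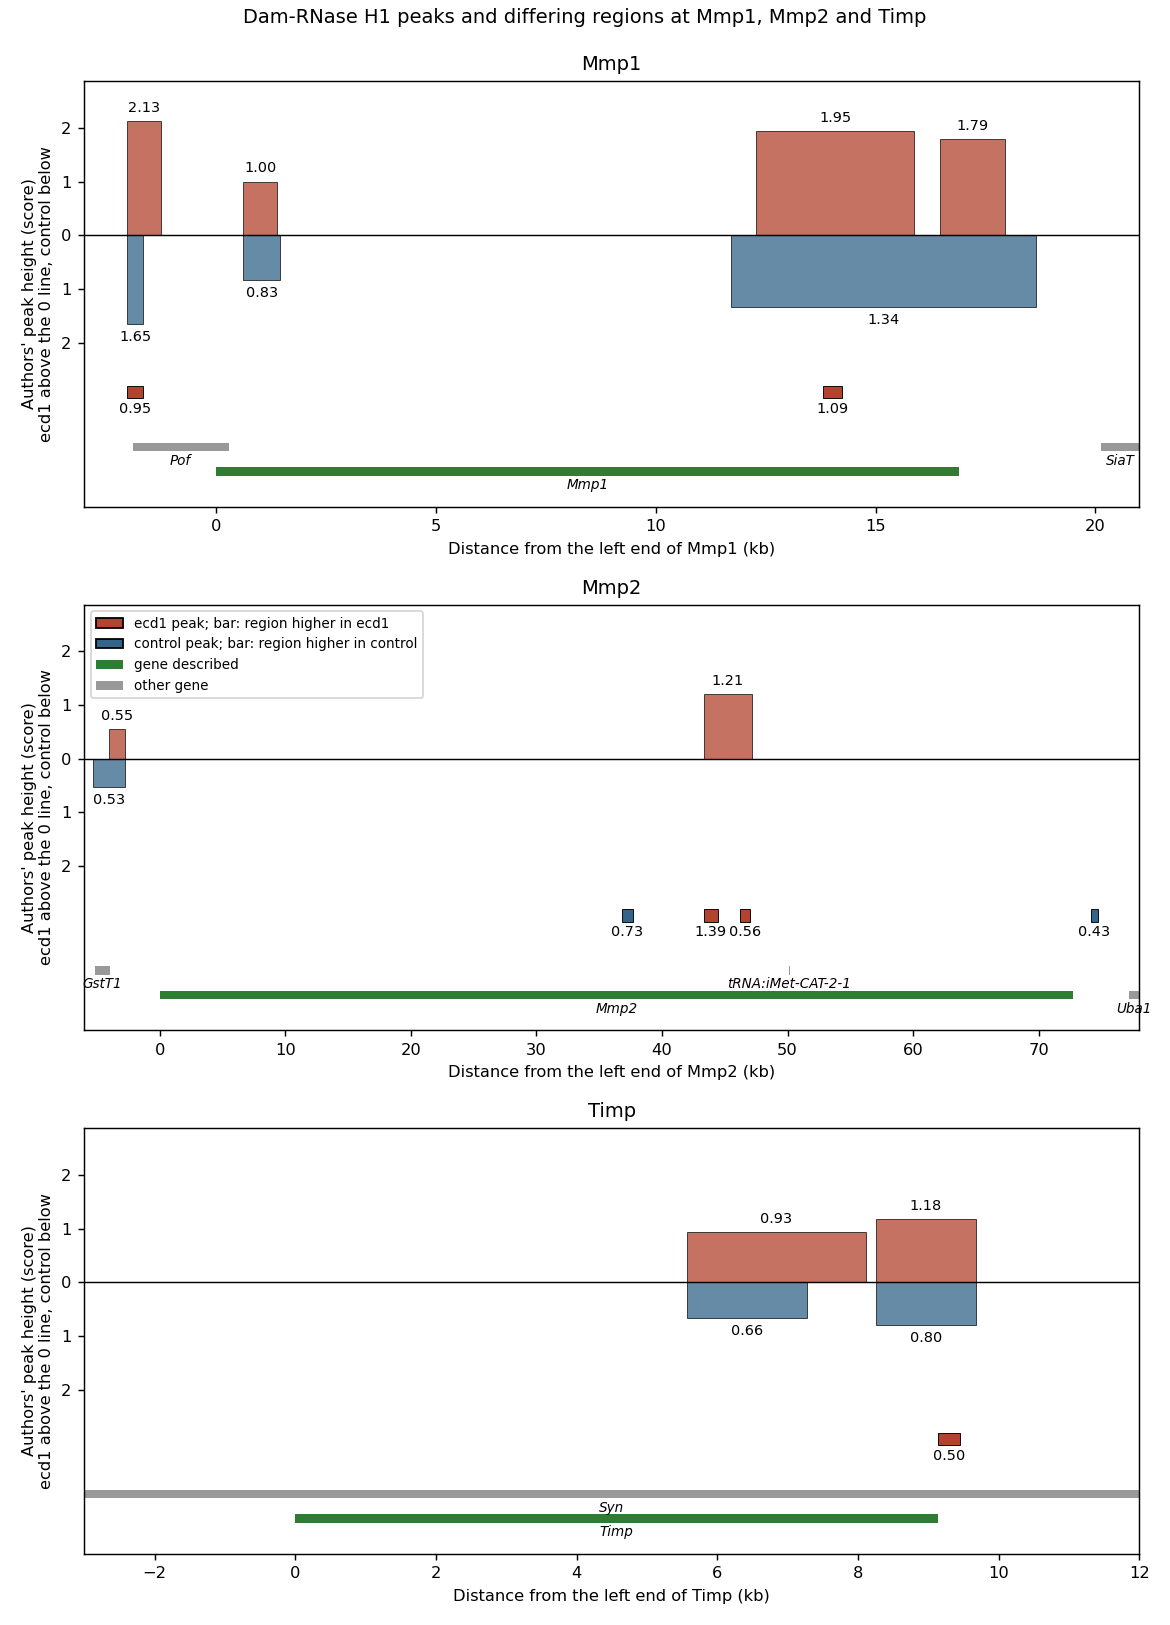
Peaks of ecd1 discs (above the 0 line) and control discs (below it) at Mmp1, Mmp2 and Timp, by distance from the left end of each gene in kb, with the authors' height on the vertical axis and regions of the authors' deposited difference tables as bars below. The control peak of 1.34 at Mmp1 meets 2 ecd1 peaks, Mmp2 has a peak of 1.21 in ecd1 only, and the Timp region of 0.50 starts at the end of the gene.

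Genes with the most similar pair of listed heights were sought among the genes in both tables, leaving out genes listed at the same peak. RpL26, a ribosomal protein gene, was closest to Ilp8, with 2.84 in ecd1 and 1.61 in control. CG9945 (2.74 in ecd1 and 1.50 in control) and Fer3HCH, a ferritin chain gene (2.93 and 1.69), followed among 5 genes within a distance of 0.136. Closest to Mmp1 were Tak1, a kinase gene of the JNK and immune pathways, with 1.80 in ecd1 and 0.82 in control, mRpS18C and BthD; the Mmp1 pair joins peaks of opposite ends of the gene, so this likeness is one of table entries and describes no single place. Closest to Timp were phtf, with the same 1.18 in ecd1 and 0.80 in control, wts, a Hippo pathway kinase gene, and Sfp24Ba. The measure rests on 2 values per gene. Mmp2 had no pair.

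**Figure D4:**
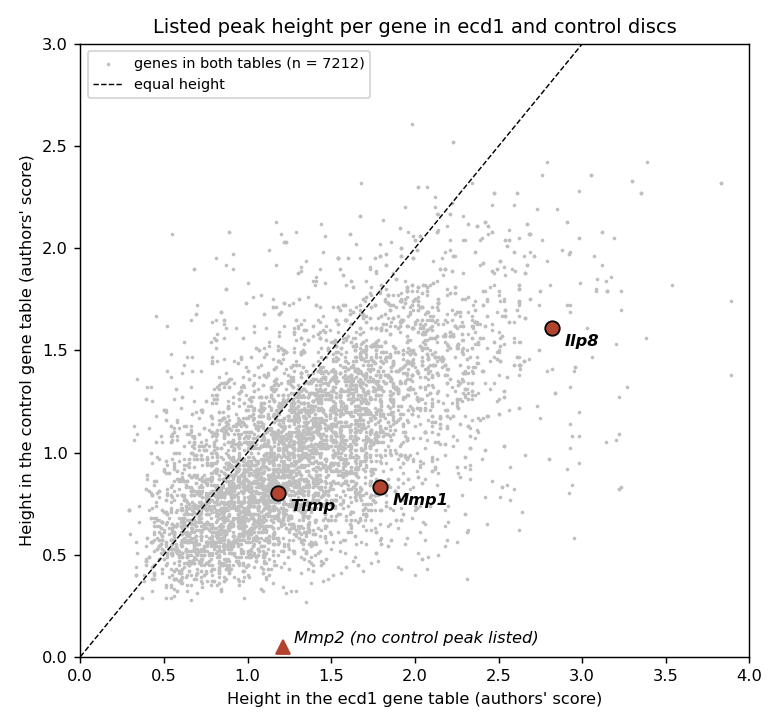
Height of the listed peak in the ecd1 gene table (horizontal) and the control gene table (vertical) for 7212 genes in both tables (grey), with Ilp8, Mmp1 and Timp as circles and Mmp2, which has an ecd1 height of 1.21 and no control peak, as a triangle on the horizontal axis. All 3 circles lie below the dashed line of equal height, as do 5751 of the 7212 genes.

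Proteases and inhibitors of the matrix carried regions in both directions. The list holds 19 genes, Mmp1, Mmp2 and Timp among them, and 18 had a listed peak. A region higher in ecd1 was listed for 16 of the 18 (88.9%) by the authors' deposited table, with a median height of 0.90, against 57.1% and 0.75 over all genes. A region higher in control was listed for 9 of the 18 (50%) by the authors' deposited table, against 22.1% of all genes. Its median height was 0.64, against 0.54. By overlap with the gene the shares were 88.9% and 38.9%, against 38.6% and 14.8% of all annotated genes with a peak. Neither gene length nor the number of peaks per gene was matched in this or the later list comparisons. After Mmp2 the tallest calls in the authors' deposited table were sona (1.30), a secreted ADAMTS protease gene, Ppn (1.22), the gene of the matrix protein papilin, and Sb (1.16), the gene of the protease Stubble that acts in disc eversion. The membrane-anchored protease inhibitor gene Reck had a region of 0.60 higher in ecd1 and a larger one of 1.07 higher in control in the authors' deposited tables. The ADAM protease gene kuz had no region in either direction. Its listed height was 0.79 in ecd1 and 1.17 in control, but that control peak lay outside kuz. The tallest control peak over the gene was 0.94.

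The basement membrane list joins genes of matrix components with genes of modifiers, such as Rab10 and PH4alphaEFB, and of cell-surface proteoglycans. Whether the proteases cut each product was not tested. Of 15 with a listed peak, 11 were called on the ecd1 side by the authors' deposited table (73.3%, median height 0.83). The control side had 7 by the authors' deposited table (46.7%, median 0.44). Over all genes the shares were 57.1% and 22.1%. The glypican gene dlp (1.05), the nidogen gene Ndg (1.04), the laminin chain gene wb (0.90), and the laminin chain gene LanA with the glypican gene dally (0.88 each) led on the ecd1 side in the authors' deposited table; the dally region lay 911 bp outside the gene. All 4 laminin chain genes had such a region, with listed peak heights of 2.15 in ecd1 and 1.46 in control for LanA, 2.20 and 1.52 for LanB1, 2.61 and 1.70 for LanB2, and 1.95 and 1.16 for wb. Unlike the others, wb overlapped 12 peaks in each list, and its tallest control peak was 1.37. The collagen IV gene Col4a1 had no peak, whereas its partner vkg had one of 1.55 in ecd1 and 0.56 in control. Regions at vkg went both ways in the authors' deposited tables, with 0.67 higher in ecd1 and 0.44 higher in control. Integrin and adhesion genes were called on the ecd1 side in 13 of 16 cases (81.2%, median 0.83) and on the control side in 4 (25%, median 0.68) in the authors' deposited tables, the second near the 22.1% of all genes. Counting only regions that overlap the gene gave 56.2% on the ecd1 side and 25% on the control side. By the same rule these shares were 38.6% and 14.8% over all annotated genes with a peak. The largest on the ecd1 side in the authors' deposited table were parvin (0.99), Itgbn (0.97), Fak (0.95) and rhea (0.93), which encode integrin adaptors, a beta integrin, focal adhesion kinase and talin. The Itgbn and rhea regions did not touch their genes, from which they were 794 and 840 bp away.

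Among insulin-like peptides and their receptors, 8 of the 15 genes had a listed peak, with no share of all annotated genes to set beside it. The peak listed for Ilp8, nearly all of it outside the gene, was the tallest in each genotype. In control its lead was small, with 1.61 against 1.51 for Lgr4 and 1.54 for the tallest peak over the insulin receptor gene InR. A region higher in ecd1 was listed for 5 of the 8 (62.5%) and one higher in control for 4 (50%) by the authors' deposited tables, against 57.1% and 22.1% of all genes. The first share is near that of all genes, and by overlap with the gene it was 37.5%, against 38.6% of all annotated genes with a peak. The next calls in the authors' deposited tables were ImpL2 (1.08 higher in ecd1, at 156 bp from the gene), which encodes a secreted binding protein of insulin-like peptides, Lgr4 (0.83 higher in control) and Sdr (0.82 higher in ecd1). Ilp1, Ilp2, Ilp3 and Ilp4 had no peak within 26617 bp in ecd1 or 26662 bp in control. Lgr3, the Ilp8 receptor gene, had no peak over it; the nearest was 1895 bp away, with heights of 0.60 in ecd1 and 0.61 in control.

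A last list joins JNK, JAK/STAT, Hippo and Wnt genes of injured discs with genes of developmental timing, such as Ptth and tor, which act in the brain and prothoracic gland, and the stage genes ftz-f1, Eip75B and chinmo. Of its 23 genes, 21 had a listed peak; 20 of these 21 (95.2%) were called on the ecd1 side and 6 (28.6%) on the control side in the authors' deposited tables, against 57.1% and 22.1% of all genes. By overlap with the gene the ecd1 share was 81%, against 38.6% of all annotated genes with a peak. The median ecd1 height was 0.98 in the authors' deposited table, led by wg (1.63), ftz-f1 (1.51), Eip75B (1.42) and chinmo (1.39). The wg region lay 3408 bp outside the gene. On the control side the largest heights in the authors' deposited table were 1.21 for chinmo, in a region that adjoins the ecd1 one, and 0.86 for puc. The JNK pathway gene puc also had 1.31 on the ecd1 side, and Eip75B had 0.52 on the control side. The exception on the ecd1 side was tor, the gene of the receptor of the timing hormone PTTH. The AP-1 subunit gene kay had a region of 1.16 and the cytokine genes upd1 and upd2 regions of 1.20 and 1.22 in the authors' deposited table. Jra, the other AP-1 subunit gene, and yki, the Hippo pathway coactivator gene, had no listed peak. This list overlaps gene sets already known to be called often in these data, and its count is no independent evidence of a direction.

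**Figure D5:**
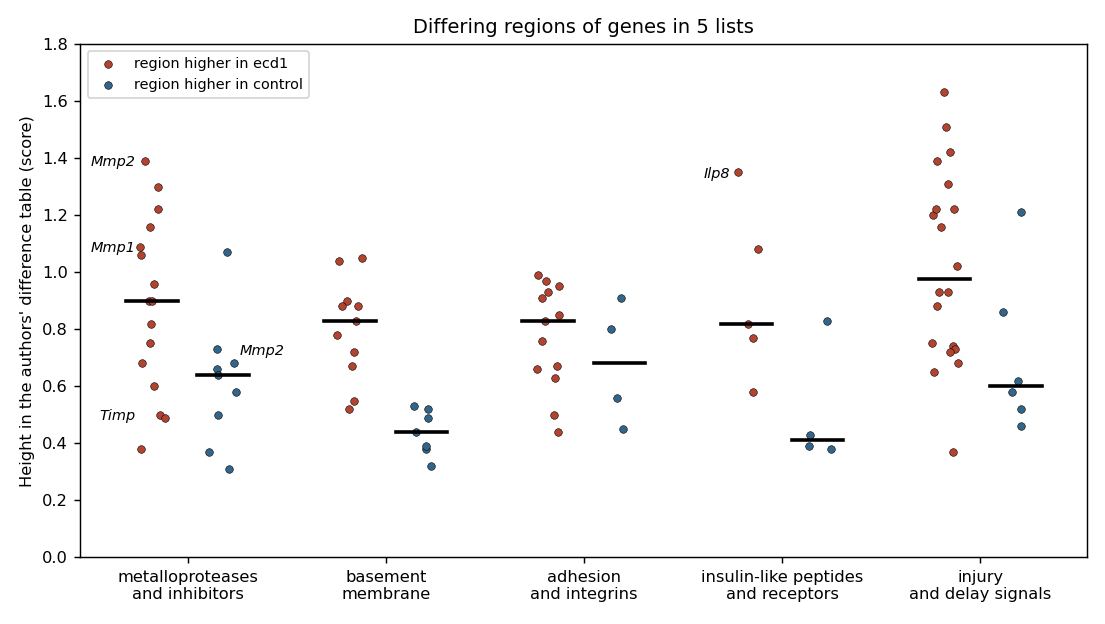
Heights in the authors' deposited difference tables for genes with a listed peak in 5 gene lists (points), with regions higher in ecd1 to the left and higher in control to the right within each list; horizontal lines are medians. On the ecd1 side the medians run from 0.82 to 0.98, and Mmp2 (1.39) and Ilp8 (1.35) are the highest points of their lists.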

How the data were processed

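The files are deposited tables of 1 peak list and 1 gene table per genotype and of regions higher in either genotype, with 1 region per gene. Peak height is a score made by the authors, and neither its scale nor its log base is stated. The FDR, a q-value deposited by the authors, was under 0.01 for every peak. Coordinates are BDGP6, per the submitters' processing notes. How reads were aligned, peaks called, replicates pooled and Dam-only libraries used is not given in the sources used here. At 138 of 138 regions higher in ecd1 that are themselves peaks of both lists, the deposited difference height was the ecd1 minus the control peak height, to within 0.015; for other regions, smaller than a peak or without one, how it was made is not given in the sources used here. For 1 library (ecd1 Dam-only) the description disagrees with the title, which was followed.

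Symbols were matched to RefSeq gene spans (assembly Release 6 plus ISO1 MT; 10458 of 10500 identifiers) with pandas 2.3.3 and NumPy 2.4.6. Overlap needed 1 bp; distances are between facing ends; a percentile is the share of values at or below. The interval functions were tested on simulated data. No sequence, strand or exon was used here. No test was run, because no value per library exists. The members and lists were chosen with earlier results of these data known. Named are the 4 members, genes of the Ilp8 window or sharing a member's peak or region, up to 4 genes per list by the largest region height, the 3 genes closest to each member in both heights by Euclidean distance, and up to 3 genes per list without a peak. Further genes, such as Reck, kuz, vkg, kay, puc, upd1, upd2, tor, the other laminin genes, InR, trh, srp, crq, Hml, NimC1, btl, Ptth, Ilp1 to Ilp4 and the marker genes without a peak, were named after their values were seen. Alternatives were other peaks per gene, other assignments of regions, and limits on height and FDR.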

Additional observations from a re-analysis of the deposited data

How the results depend on the processing

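No paired analysis was possible because heights were deposited per genotype and not per library; leaving out replicates was not run for the same reason. Of 98 alternatives, 53 left the value within the limits set for no change (equal at 2 decimals for a height, 1.5 times for a count, the 95% Wilson interval for a percentile, and both of the last for a share of genes), 44 moved it and 1 reversed it. The difference of ecd1 minus control heights at Ilp8 was 1.21 with the tallest peak and under the FDR limit, and -0.38 as a base-weighted mean over the gene, because the low peak at the left end enters that mean in ecd1 only. At Mmp1 it was 0.61 with the tallest peak over the gene or within 1000 bp, 0.48 within 5000 bp and 0.52 as the base-weighted mean, and at Timp 0.29 as the base-weighted mean; Mmp2 kept its ecd1 height of 1.21. Only 2 of the 4 genes kept a region higher in ecd1 when a region went to the gene nearest its midpoint (Mmp1 and Mmp2), and 2 with an FDR under 0.001 (Ilp8 and Timp). None kept a region higher in control with a height of at least 1. With at least 50% of a peak or its midpoint required inside Ilp8, 0 ecd1 and 0 control peaks belonged to the gene. Percentiles moved with the set ranked. For Ilp8 they were 99.2 (gene table), 99.1 (same arm) and 99 (FDR under 0.001) in ecd1, and 92.2, 93.6 and 92 in control. Among the genes of the gene table and among peaks with an FDR under 0.001, they were 83.4 and 80.7 for Mmp1 in ecd1, 38.7 and 35 for Mmp1 in control, 50.5 and 44.2 for Mmp2 in ecd1, 48.5 and 42 for Timp in ecd1, and 35.4 and 32.1 for Timp in control; on its own arm Timp had 57.6 in ecd1 and 43 in control. With regions given by overlap, the ecd1 side had 56.2% of adhesion genes, 37.5% of insulin-like peptide genes and 81% of injury genes. The share over all annotated genes with a peak was 38.6% by this rule. Over all annotated genes of the insulin-like list, the shares were 40% on the ecd1 side and 26.7% on the control side. With a height of at least 1, the shares on the ecd1 and control sides were 33.3% and 5.56% for proteases and inhibitors, 13.3% and 0% for basement membrane, 0% and 0% for adhesion, 25% and 0% for insulin-like peptides, and 47.6% and 4.76% for injury genes. Over all genes with a peak the ecd1 share at this height was 12.4%, near that of the basement membrane list. The control share over all genes was not computed at this height. The alternatives for the injury list were chosen after seeing the data. Depth is unknown, so what it limits cannot be given.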

Other observations

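The larger heights of the difference regions inside the Ilp8 peak were a common form. Of the peaks with identical ends in both lists, 417 held a smaller region that the authors' deposited table gives to ecd1, and in 410 of them (98.3%) that region's height exceeded the difference of the whole peak, by a median of 0.28. Having 2 such regions was rare (13 of 417 peaks, 3.12%). Over all 417 peaks, the smaller regions covered a median of 43.8% of the peak, against 79.4% at Ilp8. The regions were selected for their height, which bears on the first count.

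The gene tables do not give the tallest peak of a gene as a rule. Where a gene overlapped several peaks and its listed peak, the listed peak was the tallest for 63.4% of 1785 genes in ecd1 and 62.5% of 1534 genes in control. Mmp1 was among the others in both genotypes.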
